A study of Mus musculus with 4 samples.

Results

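The T cell receptor (TCR) α locus probe sets are a run of 114 neighbouring probe sets among the 41345 probe sets of a mouse whole-transcript Affymetrix array. They were taken by the order of their identifiers, from 17299780 to 17300140, whether the platform table names them with no gene, 1 gene or several. That range was chosen from measured values: it was drawn around probe sets already seen to differ between the same 2 groups of arrays compared here. The differences between genotypes are therefore a description, and no p-value is given for any of them.

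The arrays carried RNA of invariant natural killer T (iNKT) cells of mice, 2 arrays for CD4-Vα14Tg mice and 2 for wild-type (WT) mice. CD4-Vα14Tg mice carry a Vα14 transgene driven by the CD4 promoter, and the WT mice serve as the controls. The labels give no organ, sorting gate, age or sex, and the extraction protocol speaks of frozen tissue. Nothing says that the arrays of a genotype came from separate animals, so the spread between them may be technical, and only 2 arrays a group limit the precision of every value.

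A TCR α chain is encoded by a variable (V), a joining (J) and a constant (C) segment. In a developing T cell, recombination joins 1 V segment of the locus to 1 J segment and removes the DNA between them, and repeated rounds use V and J segments that lie ever farther apart. The segments of the TCR δ chain lie inside the same locus and are lost when the α chain rearranges. iNKT cells recognise lipids presented by CD1d, and in mice they share an α chain that joins Trav11, the Vα14 segment, to Traj18.

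The place of the run on the array was checked through named neighbours. The check used probe sets named with 1 gene placed in the RefSeq table of assembly GRCm38.p6. The nearest 25 before the run were taken, and 25 from Abhd4 on. Probe sets after the run named with TCR segments were thereby left out. All 50 belong to chromosome 14, and 48 of the 49 steps between them follow the order of the chromosome. On the side of higher identifiers, 25 of 25 lie beyond the end of the TCR α locus, a count that started past the TCR names. On the other side 24 of 25 lie before its start, and the exception is Olfr1509, an olfactory receptor gene inside the annotated span. In the order of identifiers, which need not hold every gene near the locus, the closest genes named outside the run are Olfr1509 and Abhd4, TCR segments aside. Between them lie 171 probe sets: 4 before the run, the 114 members and 53 after it. The run therefore covers only part of the interval.

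Names reach few of the members. The platform table leaves 96 of the 114 without a gene, gives 17 a single symbol and gives 1 several. The 6 single symbols are Trav7-4, Trav9d-3, Trav12-2, Trav14d-3-dv8, A430107P09Rik and Rps19. Trav symbols are V segments of the α chain, and the RefSeq table gives A430107P09Rik as a synonym of Trav3-3, although it does not hold the Entrez number under which the platform table lists that name. Rps19 encodes a ribosomal protein and is no TCR gene, so the name of its probe sets goes against the label of the run. RefSeq lists 202 V, D, J and C segments of the α and δ chains, of which 5 appear alone on a probe set of this array. Trav11, Traj18 and the constant segment Trac have no entry in the platform table, so no member can be called the invariant chain itself. Unnamed members are therefore called by their identifiers.

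Many members share their values with a copy. The 114 members hold 100 distinct profiles, since 28 probe sets fall into 14 pairs with identical values on all 4 arrays. In 13 of the pairs the copies lie 28 places apart in the order of identifiers, and in the remaining pair they lie 64 places apart. No member shares its profile with a probe set outside the run, and over the whole array 98.1% of profiles are distinct. Levels below are log2 values of the deposited table, and each identical pair counts once unless stated.

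The members were not dim as a group. The median level of the 100 profiles was 5.87 and 5.80 on the CD4-Vα14Tg arrays and 5.65 and 5.91 on the WT arrays, against array medians from 5.04 to 5.07. Of the 100 profiles, 67 lay above the array median on both CD4-Vα14Tg arrays and 62 on both WT arrays. Levels ranged from 2.40 to 12.5 on CD4-Vα14Tg replicate 1 and from 2.41 to 11.8 on WT replicate 1. Within a genotype the median gap between the arrays was 0.18 for CD4-Vα14Tg and 0.24 for WT, somewhat wider than the 0.15 of all profiles in each genotype.

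The levels of the members correlated less between genotypes than between arrays of a genotype. Across the 100 profiles the Pearson correlation was 0.986 between the CD4-Vα14Tg arrays and 0.985 between the WT arrays, and it fell between 0.641 and 0.686 for the 4 pairs of arrays of unlike genotype. Across all profiles of the array those 4 pairs gave 0.982 to 0.985. The points are probe sets of the same 4 arrays and not independent replicates, so these correlations are descriptions. The run was also drawn around probe sets that differ between the genotypes, which by itself lowers the correlation between them. Of the 20 brightest members of each genotype, 9 were shared.

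**Figure D1:**
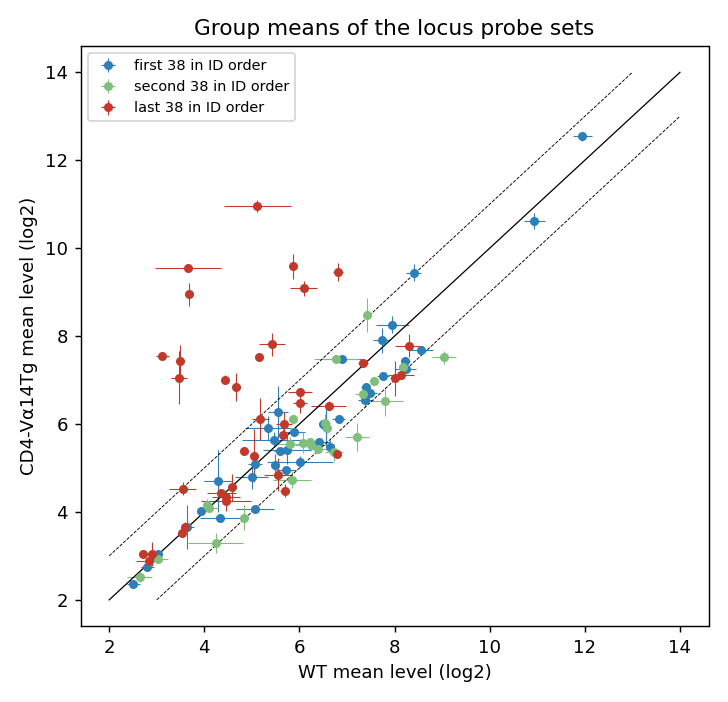
Mean log2 level of each distinct member in WT (horizontal axis) against CD4-Vα14Tg (vertical axis), with bars of 1 SD over 2 arrays, coloured by position in the order of identifiers. The solid line marks equal levels and the dashed lines a 2-fold difference; most points above the upper dashed line belong to the last 38 members.

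The differences ran both ways. Of the 100 profiles, 44 had the higher mean in CD4-Vα14Tg and 56 in WT. Both CD4-Vα14Tg arrays lay above both WT arrays in 29 profiles and below them in 43, and the arrays overlapped in 28. Groups of arrays without overlap, either way, made up 35.7% of all profiles on the array, and since the run was drawn around differing probe sets nothing is read from the contrast. The median difference of the members, CD4-Vα14Tg minus WT, was -0.10, against -0.005 over all profiles. That median is close to 0 because rises and falls offset each other, and its sign turned without WT replicate 2, to 0.006.

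At a difference of at least 2-fold without overlap, 15 member profiles were higher in CD4-Vα14Tg, where 0.701% of all profiles on the array were. In the other direction 9 member profiles were at least 2-fold lower, beside 0.481% of all profiles. The rises were much larger than the falls. Of the 15 higher profiles 13 passed 4-fold, and none of the 9 lower profiles did. The member differences ran from -1.53 to 5.89, and the upper end was also the highest difference of any probe set on the array. Members made up 4 of the 5 largest rises and 8 of the 20 largest rises of the whole array, and none of its 20 largest falls. The 13 rises beyond 4-fold were 16.9% of the 77 such profiles on the array. Since the run was drawn around differing probe sets, nothing is read from these counts, ranks and shares.

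**Figure D2:**
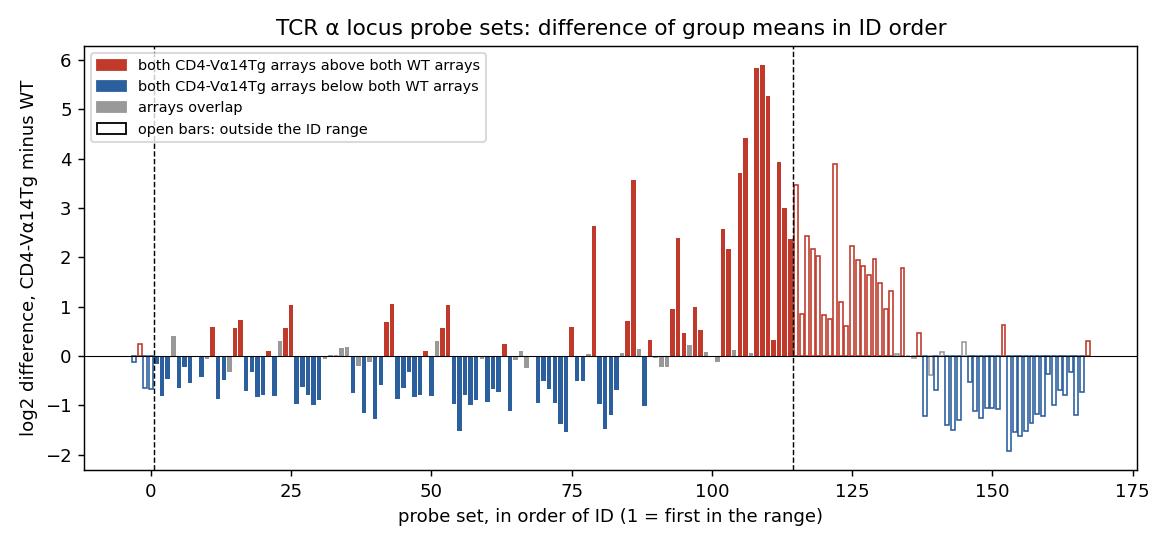
Difference of group means (log2, CD4-Vα14Tg minus WT) for each member in the order of identifiers. Open bars show the 4 probe sets before the run, back to Olfr1509, and the 53 after it, up to Abhd4. Dashed lines mark the ends of the run. Modest falls fill most of the left and middle, and the tallest bars, up to 5.89, stand near the right end of the run and continue beyond it.

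The balance of the directions shifted along the run, although every stretch held both. In the first 38 members, from 17299782 to 17299902, 26 were lower in CD4-Vα14Tg, 21 of them without overlap, and the median difference was -0.32. In the next 38, up to 17300015, 28 were lower, 24 of them without overlap, and the median difference was -0.65. In the last 38 the balance turned: 27 were higher in CD4-Vα14Tg, 20 without overlap, and the median difference was 0.33. Of the profiles at least 2-fold higher, 1, 2 and 13 lay in these stretches in order, and of those at least 2-fold lower, 1, 5 and 3. A profile whose copies lie in different stretches counts in each. Of all 40540 profiles on the array, 6753 lay above WT without overlap and 7732 below. At least 2-fold apart without overlap were 0.701% higher and 0.481% lower. The run was drawn around differing probe sets, so nothing is read from the counts by stretch.

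The last member at least 2-fold lower was 17300054, the 88th of the 114. After it, 21 of the remaining 26 members had the higher mean in CD4-Vα14Tg, 11 were at least 4-fold higher, and in none did the CD4-Vα14Tg arrays lie wholly below the WT arrays. The last member with the lower mean in CD4-Vα14Tg was followed by 13 members, of which 10 were at least 4-fold higher. Both of these ends were taken from the differences themselves, so no member past the first end could be 2-fold lower and none past the second could be lower at all. The exceptions in that stretch were 17300116 with a difference of 0.12, 17300125 with 0.07 and 17300133 with 0.33. Each of these 3 stood between strongly raised neighbours.

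The rise was steepest in 3 members that follow each other in the run. Probe set 17300127 read 10.86 and 11.05 on the CD4-Vα14Tg arrays and 4.62 and 5.61 on the WT arrays, a difference of 5.84 or 57.1-fold. Its neighbour 17300129 read 9.49 and 9.62 against 3.17 and 4.15, a difference of 5.89 or 59.4-fold. The next, 17300131, read 8.77 and 9.13 against 3.62 and 3.73, or 38.6-fold. In all 3 the CD4-Vα14Tg arrays stood over 3 log2 units above the WT arrays, and in the first and second the WT arrays themselves lay about 1 unit apart, so the size of those folds depends on which WT array is read. In WT the mean of 17300129 stood at the 19.8th percentile of all probe sets, and in CD4-Vα14Tg at the 96.0th.

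Probe sets on either side of this peak were also raised. Before it, 17300119 read 9.39 and 9.78 on the CD4-Vα14Tg arrays against 5.83 and 5.91 on the WT arrays, or 13.2-fold. The next member, 17300122, read 7.54 on both CD4-Vα14Tg arrays against 3.02 and 3.21, or 21.5-fold. After the peak, 17300135 read 7.16 and 7.68 against 3.49 and 3.50, or 15.2-fold. The WT arrays of 17300122 and 17300135 lay far below the array median, and the CD4-Vα14Tg arrays lay far above it.

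At the end of the run, 17300137 read 8.97 and 9.20 on the CD4-Vα14Tg arrays against 5.88 and 6.29 on the WT arrays, or 7.99-fold. The last member, 17300139, read 7.51 and 7.55 against 5.19 and 5.12, or 5.17-fold. These are the members just inside the upper end of the range.

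Ahead of the peak lay a pair of adjacent raised members. Probe set 17300108 read 7.08 and 6.94 on the CD4-Vα14Tg arrays against 4.44 on both WT arrays, or 5.94-fold. Its neighbour 17300112 read 6.61 and 7.07 against 4.64 and 4.69, or 4.53-fold. In both, the gap between genotypes was several times the gap between arrays of a genotype.

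Earlier in the run, 3 raised members had no adjacent member past 2-fold. Probe set 17300024 read 9.30 and 9.60 on the CD4-Vα14Tg arrays against 6.88 and 6.73 on the WT arrays, or 6.24-fold. Probe set 17300047 read 7.48 and 6.62 against 3.36 and 3.59, or 11.9-fold, and had the widest gap between CD4-Vα14Tg arrays among the raised members. Probe set 17300075 read 7.62 and 7.998 against 5.24 and 5.61, or 5.22-fold. None of the 3 overlapped between genotypes.

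The remaining 2 profiles past 2-fold were bright in both genotypes and only just passed. The identical pair 17299864 and 17299941 read 9.31 and 9.58 on the CD4-Vα14Tg arrays against 8.51 and 8.29 on the WT arrays, or 2.06-fold. Probe set 17299916 read 8.20 and 8.76 against 7.44 and 7.40, or 2.09-fold. The 13 larger rises all started from lower WT means, under 7.

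None of the 15 raised profiles carries a gene name. All 15 lay above the array median on both CD4-Vα14Tg arrays, while 7 of them lay below it on both WT arrays. Near background an array can compress differences, and whether this touched the folds of those 7 was not tested. Of the 15, 11 stood among the 20 brightest members in CD4-Vα14Tg and 2 among the 20 brightest in WT. In bulk RNA, a change in how many cells use a segment cannot be told apart from a change in RNA per cell.

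**Figure D3:**
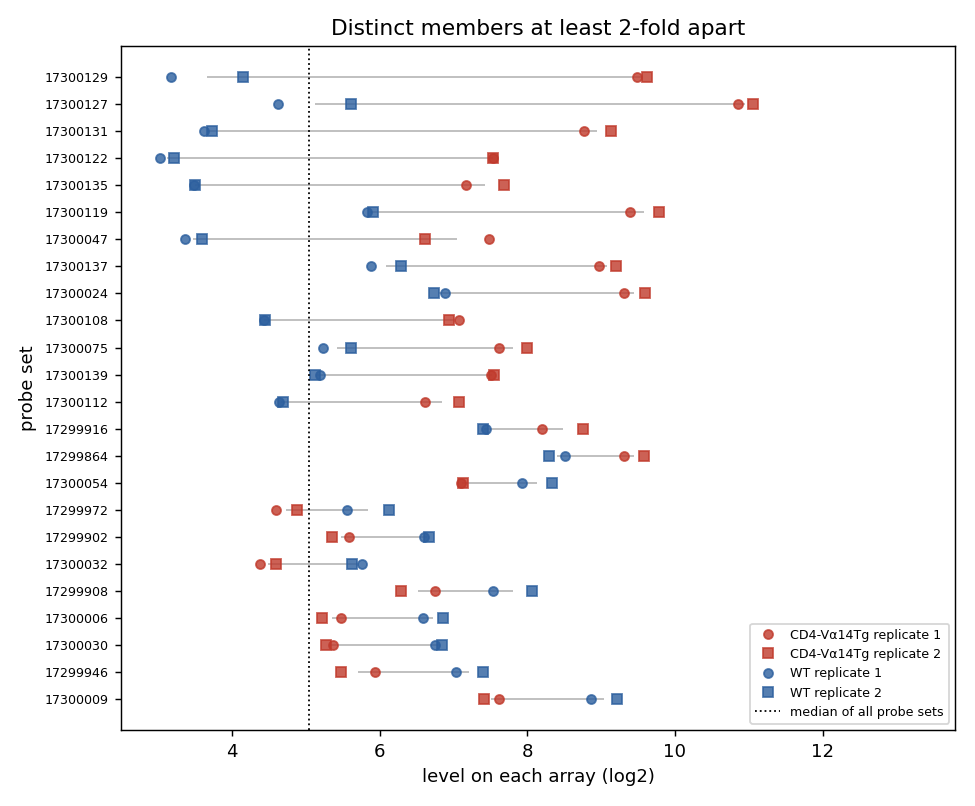
Level on each of the 4 arrays (log2, horizontal axis) of the 15 higher and 9 lower distinct members at least 2-fold apart, ordered by difference, with a grey line between group means and a dotted line at the median of all probe sets. In the upper rows the red CD4-Vα14Tg points lie up to 5.89 to the right of the blue WT points; in the 9 lowest rows they lie to the left by at most 1.53.

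The lowered members had a narrower range. The largest fall was that of 17300009, which read 7.62 and 7.41 on the CD4-Vα14Tg arrays and 8.87 and 9.22 on the WT arrays, or 2.88-fold. Probe set 17299946 followed with 5.94 and 5.47 against 7.04 and 7.39, or 2.85-fold. Probe set 17300030 read 5.37 and 5.28 against 6.75 and 6.85, or 2.78-fold. In all 3 the CD4-Vα14Tg arrays lay more than 1 log2 unit below both WT arrays.

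Smaller falls were spread over the middle of the run. Probe set 17300006 read 5.48 and 5.22 on the CD4-Vα14Tg arrays against 6.59 and 6.86 on the WT arrays, or 2.58-fold. Probe set 17299908 read 6.75 and 6.29 against 7.54 and 8.07, or 2.44-fold. Probe set 17299902 read 5.59 and 5.36 against 6.60 and 6.67, or 2.24-fold. The arrays of 17299908 were the most spread of these, with over 0.4 between the arrays of each genotype.

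Probe set 17299972 read 4.59 and 4.88 on the CD4-Vα14Tg arrays against 5.56 and 6.13 on the WT arrays, or 2.16-fold. The other 2 lowered members bear V segment names and are given with their namesakes below. All 9 lowered profiles lay above the array median on both WT arrays, and 7 of them still did on both CD4-Vα14Tg arrays. The number of lowered profiles moved most with WT replicate 1, and was 16 without it. It was 8 without WT replicate 2, and 10 and 12 without CD4-Vα14Tg replicates 1 and 2.

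Members named with a V segment mostly read lower in CD4-Vα14Tg. The 13 distinct profiles named with 1 TCR segment had a median difference of -0.82, 9 of them lay below WT without overlap, 2 lay above and 2 overlapped. None was at least 2-fold higher, and 2 were at least 2-fold lower. Of all 40540 profiles on the array, 7732 lay below WT without overlap and 6753 above, and 0.481% were at least 2-fold lower. These members belong to a run drawn around differing probe sets, so nothing is read from their counts. Which V segment a probe set reads is uncertain, because the V segments of a family are near copies of each other and a name may cover reads of several.

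Trav12-2 names 5 members with 3 distinct profiles. Probe set 17300032 read 4.38 and 4.59 on the CD4-Vα14Tg arrays and 5.76 and 5.62 on the WT arrays, or 2.30-fold lower. The pair 17299849 and 17299926 read 6.56 and 6.53 against 7.27 and 7.49, and the pair 17299857 and 17299934 read 6.69 and 6.45 against 7.39 and 7.38. All 3 profiles were lower in CD4-Vα14Tg, by 1.20, 0.83 and 0.82 on the log2 scale.

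Trav9d-3 names 3 members. Probe set 17300054 read 7.11 and 7.13 on the CD4-Vα14Tg arrays and 7.93 and 8.33 on the WT arrays, or 2.02-fold lower. Probe set 17299919 read 7.30 on both CD4-Vα14Tg arrays against 8.12 and 8.23. Probe set 17299842 read 6.13 and 6.11 against 6.72 and 6.92. The differences were alike, from -1.01 to -0.70, although the levels were not.

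Trav7-4 names 2 members at very different levels. Probe set 17299796 read 7.14 and 7.06 on the CD4-Vα14Tg arrays against 7.67 and 7.84 on the WT arrays. Probe set 17299991 read 3.66 and 4.08 against 4.78 and 4.88, below the array medians throughout. Their differences were -0.66 and -0.96.

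A430107P09Rik also names 2 members, which did not behave alike. Probe set 17299867 read 7.21 and 7.32 on the CD4-Vα14Tg arrays against 8.38 and 8.08 on the WT arrays, a difference of -0.97. Its identical copy 17299944 is the member with several names, A430107P09Rik and Trav3n-3. Probe set 17300050 was near background, at 2.85 and 3.23 against 2.77 and 3.05, and its arrays overlapped.

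Trav14d-3-dv8, a V segment whose name marks use by both α and δ chains, names 3 members. Among the V segments named in the run, it alone had no member with the lower mean in CD4-Vα14Tg. Probe set 17299913 read 7.47 on both CD4-Vα14Tg arrays against 6.44 and 7.11 on the WT arrays, a difference of 0.70. Probe set 17300079 read 6.63 and 6.31 against 6.11 and 5.91, a difference of 0.46. Probe set 17299893 read 5.77 and 5.52 against 4.996 and 5.93 and overlapped. The WT arrays of 17299913 lay 0.67 apart, about the size of its difference. Those of 17299893 lay 0.94 apart, wider than its difference of 0.18.

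Of the 6 brightest profiles over all arrays, 3 were at least 2-fold apart and 3 were not. The identical pair 17299820 and 17300012 read 12.47 and 12.61 on the CD4-Vα14Tg arrays and 11.81 and 12.09 on the WT arrays, or 1.51-fold higher. The pair named Rps19, 17299847 and 17299924, read 10.74 and 10.50 against 11.10 and 10.78, or 1.25-fold lower. After these came 17299864 with its copy, 17300009 and 17300024, whose values are given above, and the pair 17299877 and 17299954, which read 7.71 and 7.64 against 8.37 and 8.74, or 1.84-fold lower.

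The 14 profiles held by identical pairs all lie in the first and second stretches, and most of them were lower in CD4-Vα14Tg. Their median difference was -0.55, with 8 below WT without overlap, 4 above and 2 overlapping. Of all 40540 profiles on the array, 7732 lay below and 6753 above. As for the other members, nothing is read from these counts. Only 1 of the 14 passed 2-fold, the pair at 17299864. Counting every probe set in place of distinct profiles gave 16 higher and 9 lower members.

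The range ended inside a raised stretch. Just outside its upper end, 17300141 read 7.08 and 7.56 on the CD4-Vα14Tg arrays against 3.36 and 4.35 on the WT arrays, a larger difference than that of the last member. The next, 17300143, read 6.26 and 6.88 against 5.99 and 5.44. At the lower end the first members, 17299782 and 17299785, had differences of -0.16 and -0.81, and the probe sets just outside, 17299779 and 17299776, had -0.67 and -0.65.

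Beyond the run the rise continued and then gave way to falls. The first 23 of the 53 probe sets up to Abhd4 held 21 positive differences and 14 probe sets at least 2-fold higher, with a median difference of 1.47. The division was placed at the first probe set at least 2-fold lower, so all such falls lie after it by that choice. The other 30, from 17300187 on, held 26 negative differences and 17 probe sets at least 2-fold lower, with a median of -1.07. With the 57 outside probe sets added, the counts were 29 profiles at least 2-fold higher and 26 at least 2-fold lower out of 157.

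Names of members recur on 4 probe sets after the run. Probe set 17300155 is named Trav7-4 and read 7.13 and 7.26 on the CD4-Vα14Tg arrays against 2.90 and 3.71 on the WT arrays, opposite in direction to both members of that name. Probe set 17300173 is named Trav12-2 and read 8.25 and 8.65 against 7.47 and 7.54, also opposite to the members of its name. Probe sets 17300181 and 17300247 are both named Trav9d-3. The first read 7.11 and 7.80 against 7.27 and 7.64, a difference of -0.003, where the members of that name were all lower in CD4-Vα14Tg. The second, the last before Abhd4, read 13.44 and 13.55 against 13.11 and 13.28, far above those members.

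Genes outside the locus, which the rule for the members did not use, were tested with limma, with p-values adjusted by Benjamini-Hochberg over 13602 genes. Of these, 83 or 0.61% were higher in CD4-Vα14Tg and 182 or 1.34% were lower, and the median difference over all genes was -0.02. Over 5 lists of genes that make, rearrange, pair with or border the TCR α locus, 77 genes were tested, 1 was higher and 3 were lower. These are 1.30% and 3.90% of the list genes, and with so few calls nothing sets the lists apart from all genes.

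Of the V(D)J recombination genes, which cut and rejoin receptor segments, 13 of 18 were tested and none was called by limma, at an unadjusted p under 0.05 either. Their median difference was -0.01. Trp53bp1, a DNA break response gene, stood 0.20 higher in CD4-Vα14Tg (adjusted p = 0.638), and the DNA polymerase gene Poll stood at -0.12 (adjusted p = 0.853). The end-binding gene Xrcc6 stood at -0.07 and the ligase gene Lig4 at 0.07, with adjusted p-values of 0.929 and 0.939. The recombinase gene Rag2 was below the filter, at 3.82 and 4.16 on the CD4-Vα14Tg arrays and 3.88 and 3.98 on the WT arrays. Dntt, which adds bases at the joins, was also below it, at 4.06 and 4.57 against 4.05 and 4.01. Rag1 has no probe set named with it alone.

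In the TCR complex, where the α and β chains assemble with CD3 chains, 7 of 9 genes were tested and 1 was lower. Fcer1g, a signalling adaptor chain related to the CD3 ζ chain, read 8.87 and 8.57 on the CD4-Vα14Tg arrays and 10.12 and 9.92 on the WT arrays. It fell by 1.30 on the log2 scale (SE 0.15, adjusted p = 0.00823), lower on both CD4-Vα14Tg arrays, with adjusted p from 0.0127 to 0.0268 when 1 array was left out. The CD3 chain genes did not pass: Cd3e differed by -0.31 (95% confidence interval -0.63 to 0.01), Cd3d by -0.13 and Cd3g by -0.09. Their adjusted p-values were 0.456, 0.827 and 0.8995. Ptcra, which pairs with the β chain before an α chain is made, differed by 0.12 (adjusted p = 0.921). Cd247, the CD3 ζ chain, has no probe set named with it alone.

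Of 20 tested factors that bind the TCR α enhancer or shape its chromatin, 1 was higher and 1 lower. Lef1, a TCF family factor, read 10.75 and 10.72 on the CD4-Vα14Tg arrays and 9.83 and 9.96 on the WT arrays. It rose by 0.84 (SE 0.12, adjusted p = 0.0172), but the call was lost with either CD4-Vα14Tg array or WT replicate 1 left out, at adjusted p from 0.0633 to 0.0733. Runx3, a RUNX family factor, read 6.95 and 7.39 against 8.37 and 8.54 and fell by 1.28 (SE 0.17, adjusted p = 0.0130). Runx1 differed by 0.53 (adjusted p = 0.0849) and Myb by -0.49 (adjusted p = 0.141), and neither passed.

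The genes that border the locus gave no calls. Of 34 tested neighbours none was called by limma, 3 had an unadjusted p under 0.05, and the median difference was -0.01. Dad1, which lies next to the constant end of the locus, read 11.65 and 11.59 on the CD4-Vα14Tg arrays and 11.69 and 11.81 on the WT arrays, a difference of -0.13 (adjusted p = 0.819). The widest differences were those of Pnp at -0.52, Ndrg2 at 0.43, Ajuba at -0.40 and Mmp14 at 0.33, with adjusted p-values of 0.315, 0.325, 0.337 and 0.441.

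Probe sets named with 1 segment of another TCR locus were 3, and 1 was lower. Trgv5, a γ chain V segment, read 6.14 and 6.25 on the CD4-Vα14Tg arrays and 8.02 and 7.90 on the WT arrays. It fell by 1.77 (SE 0.12, adjusted p = 0.00119), with adjusted p from 0.00367 to 0.00537 when 1 array was left out. Trgv6 differed by -0.43 and Trbv13-2, a β chain V segment, by -0.25, with adjusted p-values of 0.463 and 0.504.

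**Figure D4:**
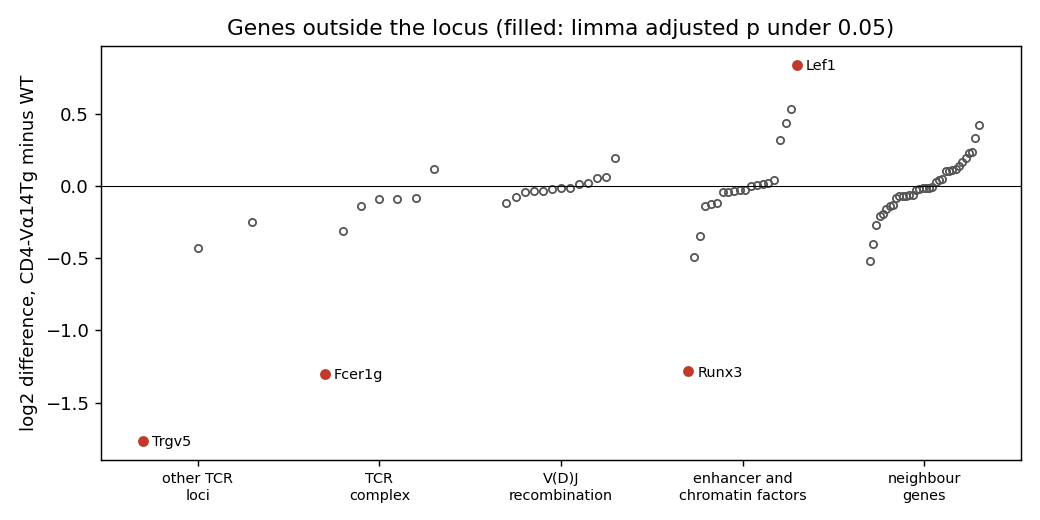
Difference of group means (log2, CD4-Vα14Tg minus WT) of each tested gene of the 5 lists; filled points passed limma's adjusted threshold of 0.05 over all genes and open points did not. Of the 77 genes, Lef1 lies above 0 among the filled points and Runx3, Fcer1g and Trgv5 lie below, all within the range from -1.77 to 0.84.

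Markers of cell types set the members in context. Of 15 iNKT and T cell markers, 2 were lower, Klrb1c at -1.45 and Il2rb at -0.80 (limma adjusted p = 0.00326 and 0.0427, the second lost whichever array was left out), and none was higher. Summarised by the mean of the list, they stood between 9.77 and 10.1 on the 4 arrays. Of 5 tested markers of double-positive thymocytes, the stage at which the α locus rearranges, Themis was higher by 1.67 (limma adjusted p = 0.00408) and Aqp11 lower by 1.04 (limma adjusted p = 0.0262). The Aqp11 call was lost when replicate 2 of either genotype was left out, at an adjusted p of up to 0.102. The list mean ran from 5.74 to 5.91 in CD4-Vα14Tg and from 5.64 to 5.77 in WT. Of 4 γδ T cell markers, Blk was lower by 2.34 (limma adjusted p = 0.000759), and the list mean was 6.79 and 6.85 in CD4-Vα14Tg against 7.30 and 7.26 in WT. The other 3 did not pass: Cd163l1 differed by 0.59, Etv5 by 0.19 and Sox13 by -0.28, with adjusted p-values of 0.115, 0.749 and 0.446. Without Blk the mean of the list was 6.94 and 7.14 in CD4-Vα14Tg against 6.91 and 6.84 in WT. B cell and hepatocyte list means lay from 3.99 to 4.31 on every array, with 1 and 2 genes tested and none called. The erythroid list had 1 gene tested, not called, and a mean from 4.63 to 4.87. Of 3 tested myeloid markers Itgam was higher by 0.67, at levels from 4.69 to 5.44, a call lost whichever array was left out (adjusted p = 0.0438 with all 4), and the list mean ran from 4.70 to 4.81. The other 2, Fcgr3 at -0.51 and Cd68 at -0.32, did not pass (limma adjusted p = 0.116 and 0.401). The part of these cell types in the differences of the members was not tested.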

How the data were processed

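The deposited table holds log2 values, 1 per probe set and array, for 4 arrays, and per the submitters' processing notes it was made with RMA (background correction, quantile normalization and probe summary) and Affymetrix Power Tools. Tool versions, options and the build were not given in the sources used here. After quantile normalization a shift of total RNA cannot be seen.

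Members were taken by identifier, and probe sets with identical values on all arrays were collapsed. The members and lists were chosen with earlier results of these data known. Members got no test: differences of group means were described, with 2-fold and no overlap of arrays as the rule for a count. Named genes (23521 of 41345 probe sets have 1 symbol, 1814 several, 16010 none; 22180 genes by brightest probe set) were kept at or above the 40th percentile of named probe sets on at least 2 arrays, which left 13602. They were tested with limma 3.58.1 in R 4.3.3 (two-sided, Benjamini-Hochberg, threshold 0.05), a fit tested on simulated data. Intervals are at 95%.

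Named were members at least 2-fold apart, the 6 brightest, those with 1 gene name and those at the ends, and in each list the called genes, up to 4 in all by moderated t, and a few key genes. Lists were V(D)J recombination, TCR complex, enhancer and chromatin factors, neighbours, other TCR loci and markers of 7 cell types. Tables and plots were made with Python 3.11.15, pandas 2.3.3, numpy 2.4.6 and matplotlib 3.10.9.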

Additional observations from a re-analysis of the deposited data

How the results depend on the processing

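Arrays were normalised again or centred, the gene filter was dropped or raised, all probe sets were kept, limma's trend and robust options were used, and each array was left out in turn. The 265 genes called became 413 with all probe sets named with 1 gene, and 166 to 221 when 1 array was left out. The 4 list genes called were 3 or 4 when 1 array was left out. Members at least 2-fold higher, 15, were 13 to 18 when 1 array was left out, 0 among those with a platform name and 29 with the range extended to the neighbouring named genes, an alternative chosen after seeing the data. Members at least 2-fold lower, 9, were 8 to 16 when 1 array was left out, 33 at 1.5-fold, 2 among those named and 26 with the extended range. The median member difference, -0.10, ran from -0.25 to 0.0063 when 1 array was left out and was -0.32 for members at or above the median level and -0.76 for those named. With 1 array left out, Lig4 ran from -0.0295 to 0.1625 and Ptcra from -0.145 to 0.382, both negative without CD4-Vα14Tg replicate 2 alone and called in no setting.

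The groups share replicate numbers 1 and 2. With 2 pairs only, and a correlation of 0.15 between the differences of replicate 1 and 2 in each genotype, the samples share a number and no more is known of a pairing. With the replicate as a block, 674 genes were called, and 5 in the lists, Runx1 being the addition (limma adjusted p = 0.0394).

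With 2 arrays a group no precision beyond the spread of these arrays can be had. Whether the folds of probe sets near background are understated was not tested.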
